A study of Mus musculus with 18 samples.

Results

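The 10 genes described here encode proteins with which phagocytes recognise and take up dying cells: the receptors Mertk and Axl, their ligands Gas6 and Pros1, the receptor Trem2 and its adaptor Tyrobp, the 3 chains of complement C1q (C1qa, C1qb and C1qc), and the bridging protein Mfge8. They were chosen by gene symbol, with earlier results of these data known. Of the 45037 probe sets that are not controls, 15 are annotated to the 10 genes. All 10 genes had at least 1 probe set above the middle of its array on at least 4 of 18 arrays, the filter used here. In all, 13 of the 15 probe sets passed, among 25804 probe sets for 11733 genes. A second Axl probe set (0.68 to 62.9) and a second Gas6 probe set (4.34 to 86.4) did not pass and were not tested.

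Phagocytes clear apoptotic cells by binding phosphatidylserine, a lipid that dying cells expose on their surface. Macrophages read it through secreted bridges such as Gas6, protein S (Pros1) and Mfge8, which tie the lipid to receptor tyrosine kinases or integrins on the phagocyte. C1q coats dying cells as an opsonin, and Trem2 senses lipids and signals through the immunoreceptor adaptor Tyrobp. In macrophages, clearance by these routes is known to restrain inflammatory cytokine production, and Mertk and Axl take part in that restraint.

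The series measured total RNA of mouse immune cells on Affymetrix 3' expression arrays, in 3 groups of 6 arrays: untreated time zero, 1 h of treatment and 4 h of treatment. The design text calls the treatment a cell wall extract, of a source that is not named, and says that the mice were knockouts, while the title speaks of TLR2, which recognises bacterial lipoproteins, and of the cytokine IL-10. No label gives a genotype, strain, age, sex, cell type or animal for any array, so the 0 h controls may carry the same alleles as the treated samples, and this could not be examined. Whether the 6 arrays of a group stand for 6 animals is not stated, so the p-values refer to the spread between arrays, part or all of which may be technical. Each title ends in an array code. There are 3 separate ranges of codes (44 to 54, 32 to 37 and 12 to 22). Every range holds 6 arrays, 2 per time, and what distinguishes the ranges is not stated.

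Values are the deposited signals, on a linear scale on which the mean between the 2nd and 98th percentile of every array is 500.0, and tests were made on log2(signal + 16), which understates the change of dim probe sets. With that scaling the middle of the distribution lay lower at 4 h: the median signal was 89.8 to 105.4 at 0 h, 86.2 to 108.1 at 1 h and 74.7 to 87.5 at 4 h. The median log2 change over all tested probe sets was -0.04 at 1 h against 0 h, -0.22 at 4 h against 0 h and -0.17 at 4 h against 1 h. All 13 macrophage markers with a probe set passed the filter, though Cd163, with a median of 86.6, was above the middle of the array on 8 arrays and Marco on 10. Their summed signal was 216379 to 247989 at 0 h, 220031 to 294295 at 1 h and 219090 to 259078 at 4 h. The T cell markers Cd3e, Cd3d and Cd3g were above the middle of the array on 0 of 18 arrays. Of 6 T cell markers with a probe set 1 passed the filter. So did 2 of 5 B cell, 2 of 4 NK cell, 3 of 7 dendritic cell and 1 of 3 erythroid markers with a probe set. In bulk RNA, fewer cells of a type and less RNA per cell cannot be told apart.

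At 4 h the receptor Mertk, its ligand Pros1, the lipid receptor Trem2 and, by a small margin, the adaptor Tyrobp were lower than at 0 h, while Axl, Gas6, the C1q chains and Mfge8 did not pass the test. Mertk changed most, 6.51-fold lower, against 2.02-fold for Trem2, 1.66-fold for Pros1 and 1.25-fold for Tyrobp. In limma's fit over all 18 arrays, 4 of the 10 genes were lower and 0 higher at a Benjamini-Hochberg adjusted p under 0.05, where 23.1% of all tested probe sets were lower and 9.93% higher. The median log2 change of the 10 genes was -0.32, beside -0.22 over all tested probe sets. Over all 11733 genes, each by 1 probe set as for the 10, the median was -0.19, and 23.9% were lower and 11.5% higher. After centring each array on its median 2 of the 10 were lower (Mertk and Trem2), with a median of -0.07, and after quantile normalization 3. Over all probe sets there were 2563 higher and 5969 lower calls, against 4197 higher and 2681 lower with centring and 3176 higher and 3881 lower with quantile normalization.

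**Figure D1:**
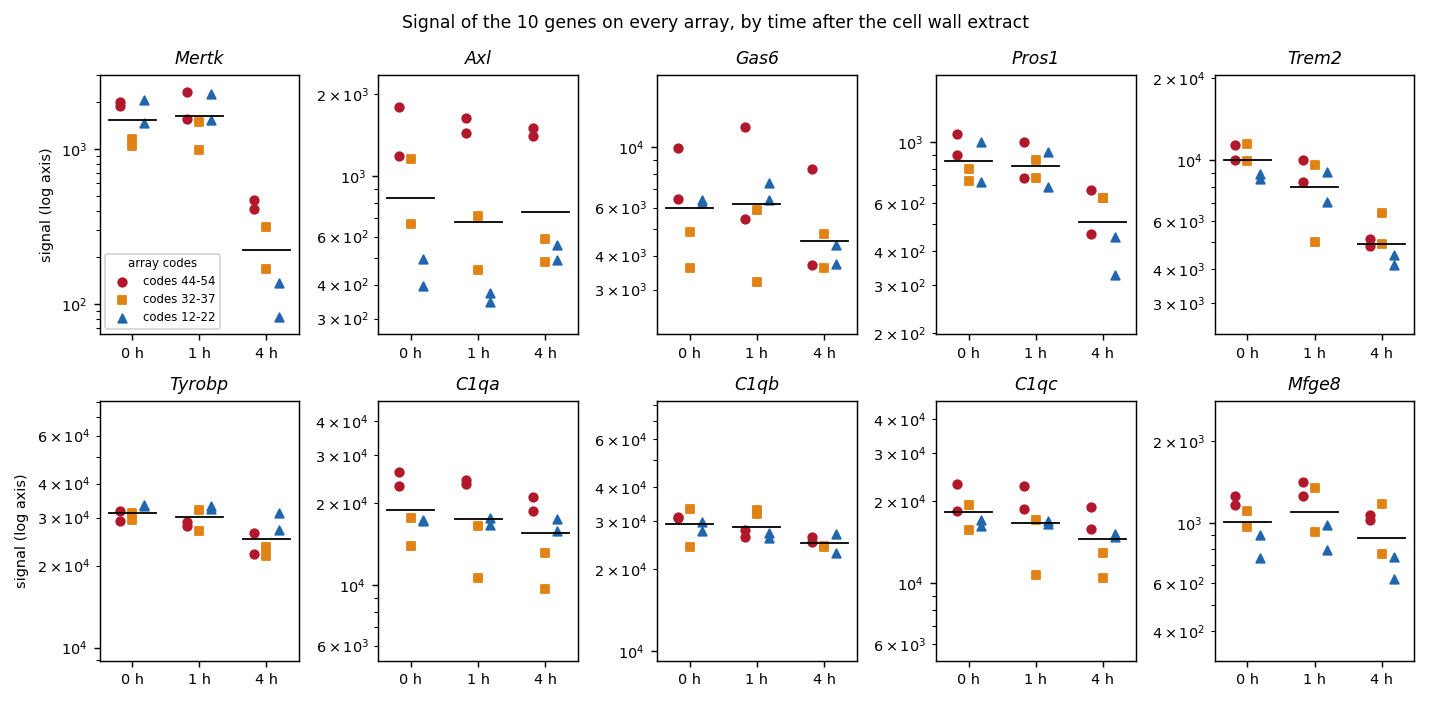
Signal of the 10 genes on each of the 18 arrays (vertical log axis, arbitrary units) at 0 h, 1 h and 4 h, with the symbol showing the range of array codes and the horizontal line the mean on the log2(signal + 16) scale. Mertk, Pros1 and Trem2 at 4 h lie below all 6 arrays at 0 h, and the 6 arrays of codes 44 to 54 read highest for Axl.

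Mertk encodes a receptor tyrosine kinase of the TAM family (Tyro3, Axl, Mertk), the member most used by macrophages to take up apoptotic cells. The gene lies on chr2:128698915-128803162 (GRCm38.p6). Its signal was 83 to 470 at 4 h, with a median of 240, against 1038 to 2051 at 0 h, with a median of 1669. All 6 arrays at 4 h lay below every array at 0 h and at 1 h. On the lowest array at 4 h the probe set stood at percentile 51.3 of that array. The log2 change was -2.70 ± 0.34 (SE, n = 6 each, limma adjusted p = 1.24e-05). The exact two-sided permutation test over arrays gave p = 0.00216, the smallest that 6 against 6 allow. At 1 h the signal was 978 to 2314, with a median of 1547, and the change against 0 h was 0.07 ± 0.34. At 4 h against 1 h the log2 change was -2.78 ± 0.34 (n = 6 each, limma adjusted p = 1.66e-05).

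Within each code range, with 2 arrays a time, Mertk fell as well. Its log2 change at 4 h against 0 h was -2.11 ± 0.24 in codes 44 to 54 (limma adjusted p = 0.00859), -2.18 ± 0.36 in codes 32 to 37 (adjusted p = 0.0353) and -3.83 ± 0.34 in codes 12 to 22 (adjusted p = 0.00711). At 4 h the signal was 408 and 470 in codes 44 to 54, 169 and 312 in codes 32 to 37, and 137 and 83 in codes 12 to 22, the lowest of the 18 arrays. The limma F test of whether the change differs between ranges did not pass (adjusted p = 0.192), as for all 10 genes, where 0.837% of tested probe sets passed. Mertk had the lowest p of the 10 in that test, 0.00624 before adjustment over all probe sets, and 10.3% of probe sets had an unadjusted p under 0.05.

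Axl encodes the TAM receptor that binds Gas6 and is often induced in inflammation. It lies on chr7:25756500-25788924. Its signal was 485 to 1498 at 4 h, with a median of 573, against 396 to 1799 at 0 h, with a median of 909. The groups overlapped over most of their range. The log2 change was -0.16 ± 0.45 (n = 6 each, limma adjusted p = 0.821), and it was 0.09 after centring each array on its median, so its direction depends on the scaling. The fit over times has no term for the code range. With the range as a block the SE was 0.19 and the change did not pass either (limma adjusted p = 0.517).

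Gas6 (chr8:13465374-13494535) encodes the vitamin K-dependent ligand of the TAM receptors. Its signal was 3597 to 8329 at 4 h, with a median of 4055, against 3603 to 9953 at 0 h, with a median of 6313. One array at 4 h, code 46, stood at 8329 and the other 5 between 3597 and 4788. The log2 change was -0.39 ± 0.29 (n = 6 each, limma adjusted p = 0.308). Within codes 12 to 22 it was -0.64 ± 0.18 and within codes 32 to 37 -0.02 ± 0.37, and neither passed (adjusted p = 0.069 and 0.982).

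Pros1 (chr16:62854307-62929346) encodes protein S, a TAM ligand that also acts as an anticoagulant cofactor in plasma. Its signal was 327 to 671 at 4 h, with a median of 542, against 713 to 1071 at 0 h, with a median of 850. All 6 arrays at 4 h lay below all 6 at 0 h. The log2 change was -0.73 ± 0.17 (n = 6 each, limma adjusted p = 0.0034). The exact permutation p was 0.00216. At 1 h the signal was 686 to 1002, the change against 0 h was -0.07 ± 0.17, and all 1 h arrays lay above all 4 h arrays, as for Mertk (6.76% of all tested probe sets were lower at 4 h than at 1 h without overlap). The log2 change at 4 h against 1 h was -0.66 ± 0.17 (n = 6 each, limma adjusted p = 0.0088). With centring on the median the change against 0 h was -0.47 (limma adjusted p = 0.0615), and within single ranges of 2 arrays a time it was -0.80, -0.27 and -1.11 in codes 44 to 54, 32 to 37 and 12 to 22, none past the threshold (adjusted p = 0.103, 0.471 and 0.0596).

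Trem2 (chr17:48346401-48352276) encodes a receptor for lipids and lipoproteins on macrophages and microglia. Its signal was 4118 to 6390 at 4 h, with a median of 4877, against 8523 to 11516 at 0 h, with a median of 10011. The highest array at 4 h lay below the lowest at 0 h. The log2 change was -1.02 ± 0.16 (n = 6 each, limma adjusted p = 0.00013), with an exact permutation p of 0.00216. At 1 h the signal was 5024 to 10033, with a median of 8716, and 1 array, code 36, lay at 5024, inside the range of the 4 h arrays. The change at 1 h against 0 h, -0.32 ± 0.16, did not pass (n = 6 each, limma adjusted p = 0.786). That at 4 h against 1 h was -0.69 ± 0.16 (adjusted p = 0.00446), and -0.46 with centring on the median (adjusted p = 0.0919). Within ranges the change at 4 h against 0 h was -1.10 in codes 44 to 54, -0.93 in codes 32 to 37 and -1.02 in codes 12 to 22 (adjusted p = 0.0221, 0.196 and 0.0279). A second, dim probe set of the gene (7.61 to 157) was also lower at 4 h than at 0 h, with a log2 change of -0.91 (n = 6 each, limma adjusted p = 0.0212).

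Tyrobp (chr7:30413782-30417582) encodes the adaptor through which Trem2 and related receptors signal to the kinase Syk. Its signal was 21652 to 31246 at 4 h, with a median of 24857, against 29069 to 33226 at 0 h, with a median of 31374. The groups overlapped, with 4 h code 16 at 31246. The log2 change was -0.32 ± 0.11 (n = 6 each, limma adjusted p = 0.0347), with an exact permutation p of 0.00866. It is close to the median shift of all probe sets. With the code range as a block it was -0.32 ± 0.09 (limma adjusted p = 0.008), and with centring on the median it was -0.06 (adjusted p = 0.755). The call in the fit without a block was lost when 1 of 7 arrays was left out, with an adjusted p of 0.0528 to 0.0766. These were 4 h codes 37, 46 or 34 or 0 h codes 35, 44, 18 or 12.

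The C1q chains assemble into the recognition unit of the classical complement pathway. Their genes lie side by side on chromosome 4, C1qb at chr4:136880126-136886200, C1qc at chr4:136889801-136892936 and C1qa at chr4:136895916-136898844, with 3600 bases between C1qb and C1qc and 2979 between C1qc and C1qa. C1qa had a signal of 9645 to 21025 at 4 h, with a median of 16636, against 13971 to 25982 at 0 h, with a median of 17546. C1qb had 22958 to 26767 at 4 h, with a median of 24664, against 24059 to 33175 at 0 h, with a median of 30204. C1qc had 10497 to 19062 at 4 h, with a median of 15039, against 15719 to 23192 at 0 h, with a median of 17834. The groups overlapped for all 3 chains. Their log2 changes were -0.28 ± 0.22, -0.24 ± 0.11 and -0.33 ± 0.17 (n = 6 each, limma adjusted p = 0.348, 0.1 and 0.157), beside -0.22 for the median of all probe sets, and with centring on the median they were -0.03, 0.02 and -0.07. With the code range as a block none of the 3 passed (limma adjusted p = 0.0772, 0.0683 and 0.0518).

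Mfge8 (chr7:79133768-79149060) encodes a secreted bridge between phosphatidylserine and integrins. Its signal was 620 to 1169 at 4 h, with a median of 897, against 742 to 1257 at 0 h, with a median of 1036. The groups overlapped, and the log2 change of -0.19 ± 0.19 did not pass (n = 6 each, limma adjusted p = 0.452). It was 0.06 with centring on the median.

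**Figure D2:**
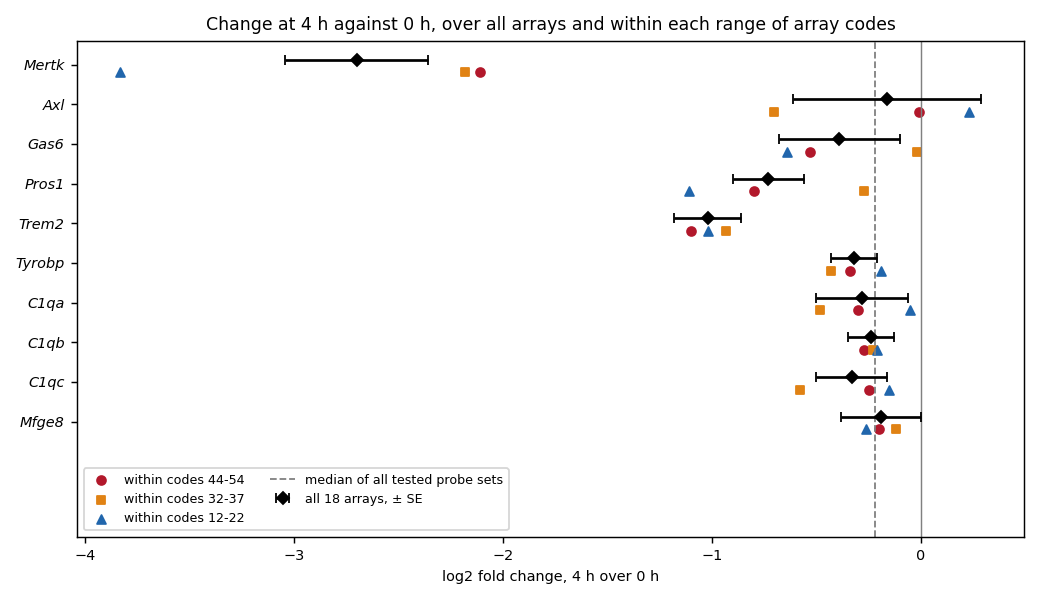
Log2 fold change at 4 h over 0 h for the 10 genes (horizontal axis), over all 18 arrays (black diamonds, bars ± SE) and within each range of array codes (coloured symbols, 2 arrays a time), with the median of all tested probe sets at -0.22 as a dashed line. Mertk lies at -2.70 over all arrays and at -2.11, -2.18 and -3.83 within the ranges, Trem2 at -1.02 and Pros1 at -0.73, while the C1q chains, Tyrobp and Mfge8 lie near the dashed line.

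At 1 h, none of the 10 genes passed the test against 0 h. By limma 0 of 10 had an adjusted p under 0.05, and 0 of 10 an unadjusted one, beside 0.752% and 6.84% of all tested probe sets. A fit with a mean-variance trend and robust variances also called 0. Their median log2 change was -0.06. Axl had 344 to 1633 at 1 h, with a median of 582, and Gas6 had 3203 to 11849, with a median of 6122. Tyrobp had 26715 to 33130, with a median of 30466. All 3 ranges overlapped those at 0 h. C1qa had 10586 to 24229, C1qb 26068 to 32991 and C1qc 10712 to 22821 at 1 h, with medians of 17108, 27456 and 16954. Mfge8 had 791 to 1407, with a median of 1113. Between 1 h and 4 h, Mertk, Pros1 and Trem2 fell, 3 of 10, where 16.7% of all tested probe sets were lower and 7.7% higher (4298 lower and 1988 higher calls, or 1899 lower and 3449 higher with centring on the median). Tyrobp had a log2 change of -0.26 ± 0.11 in that comparison (n = 6 each, limma adjusted p = 0.0943). With the code range as a block it was -0.26 as well, with an adjusted p of 0.0282.

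The 3 genes that fell at 4 h without overlap are on different chromosomes, and 11.3% of all tested probe sets were lower at 4 h without overlap between the groups. The 250 bases before their annotated starts are shown because all 3 genes were lower at 4 h, from the RefSeq promoter table of GRCm38.p6, all on the plus strand: chr2:128698665-128698914 for Mertk, chr16:62854057-62854306 for Pros1 and chr17:48346151-48346400 for Trem2. Lower case is sequence and capitals mark matches to the motifs searched, 5′ to 3′.
Mertk: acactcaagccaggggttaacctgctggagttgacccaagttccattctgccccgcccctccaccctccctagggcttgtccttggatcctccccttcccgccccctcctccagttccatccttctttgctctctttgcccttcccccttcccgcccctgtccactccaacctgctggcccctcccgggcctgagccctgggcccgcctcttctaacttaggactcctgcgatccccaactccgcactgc
Pros1: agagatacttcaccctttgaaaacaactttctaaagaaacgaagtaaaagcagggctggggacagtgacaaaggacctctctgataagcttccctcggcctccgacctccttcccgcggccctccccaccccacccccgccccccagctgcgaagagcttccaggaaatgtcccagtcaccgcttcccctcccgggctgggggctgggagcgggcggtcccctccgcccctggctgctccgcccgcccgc
Trem2: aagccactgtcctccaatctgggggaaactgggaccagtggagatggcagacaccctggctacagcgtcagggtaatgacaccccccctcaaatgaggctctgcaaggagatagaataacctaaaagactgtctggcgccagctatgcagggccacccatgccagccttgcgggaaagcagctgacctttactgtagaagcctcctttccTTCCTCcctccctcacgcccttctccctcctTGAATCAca
The motifs, searched on both strands, were those of the macrophage lineage factor PU.1, spelled GAGGAA, of the basal promoter box, spelled TATAAA, of the factor AP-1, spelled TGANTCA, and of the E box, spelled CACGTG. Trem2 holds GAGGAA on the opposite strand, as its reverse complement 40 bases before the start, and TGANTCA 9 bases before it, with no base in both. Mertk and Pros1 hold none of these motifs. Motifs of other factors, such as NF-kB, are not covered here. GAGGAA is in 23.3% of the 32851 promoters in the table, TGANTCA in 6.75%, TATAAA in 12.4% and CACGTG in 6.02%. Of the 8 members with an entry in that table, Axl, C1qb, C1qc and Mfge8 also hold GAGGAA, Gas6 holds none of the motifs, and none holds TATAAA and none holds CACGTG. For Axl and C1qc the table's start lies inside the gene's annotated span. A match is a run of letters only, and no match says only that these letters are not in this window. GC content was 63.6% for Mertk, 64.4% for Pros1 and 56.0% for Trem2, with a median of 52.4% over the table. C1qa and Tyrobp are the other 2 members.

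The ranges of array codes separated a different set of the 10 genes. Axl was 3.31-fold higher in codes 44 to 54 than in codes 12 to 22, and C1qa and Mfge8 were higher there too, by 1.33-fold and 1.5-fold. In the limma fit with time as a term, 3 of 10 genes were higher and 0 lower, where 10.5% of all tested probe sets were higher and 8.66% lower (2706 higher and 2235 lower calls, or 1987 higher and 3378 lower with centring on the median). With centring 2 of the 10 were higher (Axl and Mfge8) and 1 lower (Tyrobp, with a log2 difference of -0.30 and an adjusted p of 0.0239), and with quantile normalization 4 were higher and 0 lower. In codes 44 to 54 against 32 to 37, Axl, Gas6, C1qa and C1qc were higher, 4 of 10, where 8.87% of all tested probe sets were higher and 8.25% lower (2288 higher and 2129 lower calls, or 1505 higher and 3148 lower with centring). In codes 32 to 37 against 12 to 22, Mfge8 alone of the 10 was higher, where 9.65% were higher and 8.12% lower.

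Axl had 1186 to 1799 in codes 44 to 54, with a median of 1471, 452 to 1153 in codes 32 to 37, with a median of 626, and 344 to 559 in codes 12 to 22, with a median of 444. Every array of codes 44 to 54 lay above every other array, as did 4.41% of tested probe sets against codes 12 to 22 and 2.82% against codes 32 to 37, and the ranges 32 to 37 and 12 to 22 overlapped. The log2 difference was 1.73 ± 0.19 for codes 44 to 54 against 12 to 22 (n = 6 each, limma adjusted p = 7.73e-06) and 1.18 ± 0.19 for codes 44 to 54 against 32 to 37 (adjusted p = 0.000421). Exchanging arrays between ranges within each time, an exact permutation test gave p = 0.00926 for each, the smallest it can give. For codes 32 to 37 against 12 to 22 it was 0.54 ± 0.19 (limma adjusted p = 0.0559). The difference between codes 44 to 54 and 12 to 22 was 1.68 at 0 h, 2.05 at 1 h and 1.44 at 4 h, from 2 arrays a range at each time (limma adjusted p = 0.0776, 0.0377 and 0.0468).

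Mfge8 had 1025 to 1407 in codes 44 to 54, 769 to 1336 in codes 32 to 37 and 620 to 978 in codes 12 to 22, with medians of 1205, 1036 and 771. Codes 44 to 54 and 12 to 22 did not overlap, and codes 32 to 37 overlapped both. The log2 difference was 0.58 ± 0.12 for codes 44 to 54 against 12 to 22 (n = 6 each, limma adjusted p = 0.00332) and 0.38 ± 0.12 for codes 32 to 37 against 12 to 22 (adjusted p = 0.042). The second of these lost its call when 1 of 11 arrays was left out (codes 47, 35, 44 and 18 at 0 h, 54, 36 and 20 at 1 h, and 49, 37, 22 and 16 at 4 h), with an adjusted p of 0.0501 to 0.0888.

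C1qa had 18744 to 25982 in codes 44 to 54, 9645 to 17705 in codes 32 to 37 and 15840 to 17639 in codes 12 to 22, with medians of 23327, 13528 and 17263. Codes 44 to 54 lay above all other arrays, and codes 32 to 37 held the lowest. The log2 difference of codes 44 to 54 was 0.77 ± 0.12 against codes 32 to 37 (n = 6 each, limma adjusted p = 0.000474) and 0.41 ± 0.12 against codes 12 to 22 (adjusted p = 0.0274). The difference from codes 12 to 22 was 0.32 with centring on the median (adjusted p = 0.142), and the call was lost when 1 of 7 arrays was left out (codes 44, 18 and 12 at 0 h, 54, 51 and 14 at 1 h, and 49 at 4 h), with an adjusted p of 0.0508 to 0.0622. C1qc had 15838 to 23192 in codes 44 to 54, 10497 to 19410 in codes 32 to 37 and 14834 to 17155 in codes 12 to 22, with medians of 18916, 14352 and 16356, and these overlapped. Its log2 difference of codes 44 to 54 against 32 to 37 was 0.48 ± 0.13 (n = 6 each, limma adjusted p = 0.0178), and 0.37 with centring (adjusted p = 0.128).

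Gas6 had 3700 to 11849 in codes 44 to 54, 3203 to 5857 in codes 32 to 37 and 3739 to 7360 in codes 12 to 22, with medians of 7385, 4196 and 6307. The ranges overlapped, with the highest arrays, 9953, 11849 and 8329, all in codes 44 to 54. Its log2 difference of codes 44 to 54 against 32 to 37 was 0.75 ± 0.24 (n = 6 each, limma adjusted p = 0.0394), and 0.64 with centring on the median (adjusted p = 0.112). That call was lost when 1 of 7 arrays was left out (codes 32, 35 and 44 at 0 h, 51 and 36 at 1 h, and 37 and 46 at 4 h), with an adjusted p of 0.0582 to 0.0947. Mertk, Pros1, Trem2, Tyrobp and C1qb did not pass between any pair of ranges on the deposited scale. Tyrobp had a log2 difference of -0.20 between codes 44 to 54 and 12 to 22 (limma adjusted p = 0.121), which passed with centring. Tyrobp had medians of 28417, 28066 and 32732 in codes 44 to 54, 32 to 37 and 12 to 22, and Trem2 9195, 8013 and 7790. Mertk differed by 0.69 ± 0.29 between codes 44 to 54 and 12 to 22 and by 0.78 ± 0.29 between codes 44 to 54 and 32 to 37 (n = 6 each, limma adjusted p = 0.112 and 0.0796).

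**Figure D3:**
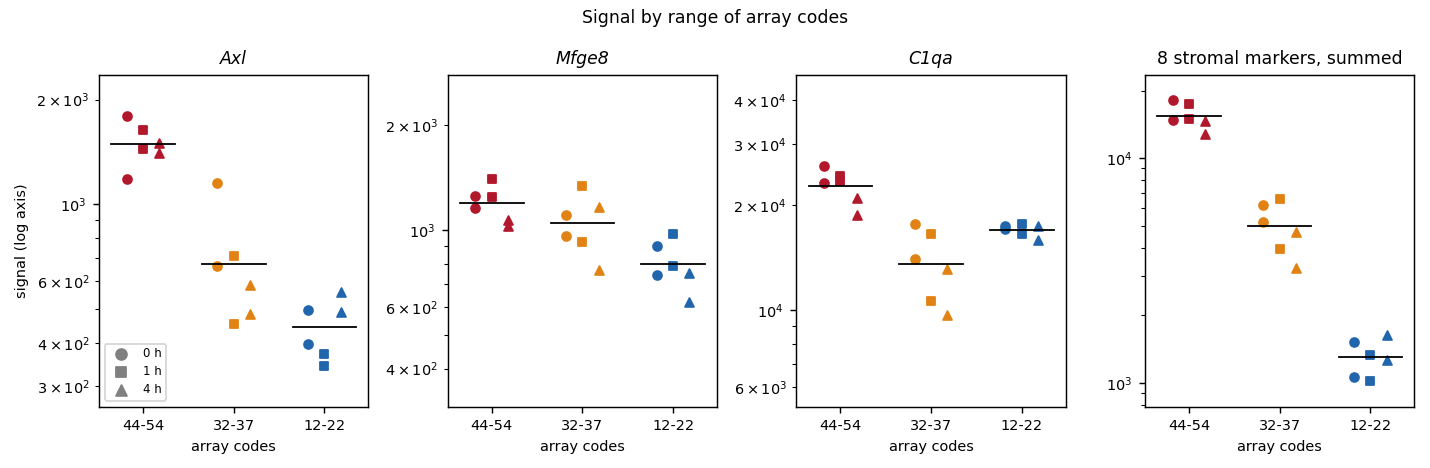
Signal (vertical log axes, arbitrary units) of Axl, Mfge8 and C1qa on each array and the summed signal of 8 stromal marker genes, by range of array codes, with the symbol showing the time and the line the mean of the 6 arrays. Axl and the stromal sum are highest in codes 44 to 54, at 1186 to 1799 and 12857 to 18123, and the stromal sum does not overlap between any 2 ranges.

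Markers of other cell types moved with these ranges. The summed signal of 8 stromal markers, of which 6 passed the filter (Lum and Thy1 were above the middle of the array on 0 arrays), was 12857 to 18123 in codes 44 to 54, 3239 to 6601 in codes 32 to 37 and 1019 to 1626 in codes 12 to 22. That of 10 neutrophil markers, of which 7 passed, ran the other way, with 1386 to 2696 in codes 44 to 54, 1931 to 4196 in codes 32 to 37 and 3952 to 6657 in codes 12 to 22. The summed macrophage markers overlapped, with 226956 to 252007, 219090 to 294295 and 216379 to 259078. The part of these cells in the differences of Axl, Mfge8, C1qa, C1qc and Gas6 was not tested. Between times, the stromal sum was 1263 to 14665 at 4 h, against 1066 to 18123 at 0 h, and the neutrophil sum 1882 to 6657 at 4 h, against 1386 to 4632 at 0 h, and both overlapped. Of the 7 neutrophil markers 1 rose at 4 h, Csf3r, with a log2 change of 1.40 (n = 6 each, limma adjusted p = 0.000299). The sum of 5 B cell markers was 227 to 357 at 4 h, against 258 to 621 at 0 h, and 256 to 419 in codes 44 to 54, 219 to 472 in codes 32 to 37 and 350 to 744 in codes 12 to 22. Among them Cd79b fell at 4 h, with a log2 change of -1.44 (n = 6 each, limma adjusted p = 0.0214), a call lost with centring and with quantile normalization. It was also lower in codes 44 to 54 than in codes 12 to 22, with a log2 difference of -1.57 (adjusted p = 3.46e-05), while Cd79a was above the middle of the array on 1 array and Ms4a1 on 0. Of 13 macrophage markers 3 rose at 4 h (Marco, Msr1 and Cd14) and 2 fell (Cd163 and Ctss). With centring on the median 3 rose and 1 fell, and with quantile normalization 3 rose and 3 fell. The dendritic cell sum was 581 to 832 at 4 h, against 357 to 484 at 0 h, with Itgax as the 1 gene of 3 that rose, and the part of these markers in the changes at 4 h was not tested.

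The 10 genes did not vary as 1 group over the 18 arrays, which share scaling, times and code ranges. C1qa and C1qc followed each other most closely, with a Pearson r of 0.91 on log2 values, and 0.91 after the mean of each time was removed. Mertk had an r of 0.82 with Pros1, and 0.44 after the time means were removed. Trem2 had 0.81 with Pros1, and 0.49 with time means removed. Mertk and Trem2 had 0.77, and 0.14 with time means removed. Trem2 and its adaptor Tyrobp had 0.42, and -0.56 with time means removed. Mertk and Axl, receptors of the same family, had 0.15, and 0.35 with time means removed.

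The probe sets of C1qb did not follow the other chains equally. The brightest, used here for the gene, had an r of 0.20 with C1qa and 0.29 with C1qc. A second, which had an r of 0.90 with the first, gave 0.37 and 0.43, and the third gave 0.76 and 0.81. On the array of code 36 (1 h) the brightest read 32991 and the third 20743. None of the 3 passed at 4 h against 0 h, with log2 changes of -0.24, -0.26 and -0.29 (n = 6 each, limma adjusted p = 0.1, 0.0504 and 0.0717).

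Outside the 10, the named genes most like each in log2 signal over the 18 arrays were found by Pearson's r, as a description of these arrays. For Mertk they were Cacfd1 (0.971) and Zfp36l2 (0.969), an RNA-binding protein that promotes mRNA decay, which fell by 2.86 on the log2 scale at 4 h. For Pros1 they were Cyp27a1 (0.919), a sterol hydroxylase, and Msrb2 (0.914), and for Trem2 Pcmtd2 (0.96) and Casp6 (0.951), a caspase. For Axl they were Epb41l3 (0.969), a membrane skeleton protein, and Slc29a1 (0.957), a nucleoside transporter, both higher in codes 44 to 54 than in codes 12 to 22, with log2 differences of 1.83 and 1.17. For C1qa they were Apoe (0.916), a lipid carrier, and Evi2a (0.912), and for C1qc Evi2a (0.933) and Usp8 (0.889). For C1qb, Gas6, Tyrobp and Mfge8 the closest were Tmem254a (0.817), Cltc (0.889), Nudt19 (0.927) and Son (0.917).

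Genes that act with the 10 were read from lists of the same pathways, by the probe set of highest mean level. At 1 h only Socs3, a feedback inhibitor of cytokine receptors, passed among them, with a log2 change of 3.82 (n = 6 each, limma adjusted p = 0.000166). Over all 11733 genes, 0.614% were higher and 0.0341% lower at 1 h. At 4 h, 11.5% of all genes rose and 23.9% fell, the shares beside which the counts per list at 4 h stand. Of 5 other TAM genes that passed the filter 3 rose and 1 fell. Socs3 averaged 20057 ± 6072 at 4 h, against 694 ± 268 at 0 h (SD, n = 6 each), and Socs1, its relative, also rose. As Socs1 was below the middle of the array on all 6 arrays at 0 h, its change is given as a bound, at least 1.74-fold higher at 4 h (limma adjusted p = 0.00449). Such bounds set the mean log2 value of the brighter group against that of the dimmer one with each of its values raised to the middle of its array. Both are known to be induced through TAM receptors, and also through cytokine receptors. Adam17, a protease that sheds Mertk from the cell surface, averaged 10315 ± 2079 at 4 h, against 5653 ± 930 at 0 h, with a log2 change of 0.86 ± 0.16 (limma adjusted p = 0.000423). Adam10, which sheds Axl, averaged 5858 ± 589 at 4 h, against 9406 ± 980 at 0 h, with a log2 change of -0.68 ± 0.11 (limma adjusted p = 0.000186). Tyro3, the remaining TAM receptor, did not pass the filter.

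Of 11 genes of the TREM family, its adaptors and kinases, 3 rose and 2 fell at 4 h. Syk, the kinase downstream of Tyrobp, averaged 9361 ± 906 at 4 h, against 2666 ± 526 at 0 h (SD, n = 6 each), with a log2 change of 1.82 ± 0.18 (limma adjusted p = 9.7e-07). Treml4 and Clec5a, receptors that use Tyrobp, rose by 2.57 and 1.94, and Sirpb1a, a further partner of Tyrobp, fell by 1.17. Treml4 was dim at 0 h, with 2.77 to 104 where the array medians were 89.8 to 105.4, so the size of its rise is uncertain. Of 13 complement genes 2 rose and 1 fell. Cfb, of the alternative pathway, rose by 2.42 and Itgax, a chain of a complement receptor, by 1.66, and C3ar1, the receptor of a complement fragment, had a log2 change of -0.60 ± 0.18 (limma adjusted p = 0.0136), or -0.34 with centring on the median (adjusted p = 0.124).

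**Figure D4:**
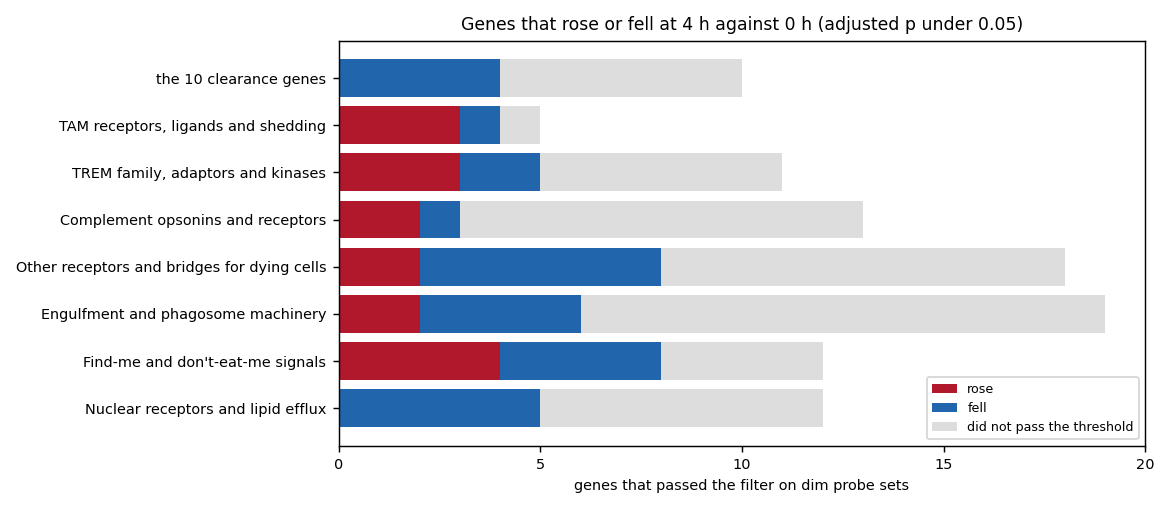
Number of genes that rose (red), fell (blue) or did not pass the threshold (grey) at 4 h against 0 h, for the 10 clearance genes and 7 lists of genes of the same pathways, counting genes that passed the filter on dim probe sets (horizontal axis). Of the 10 clearance genes 4 fell and 0 rose, and of the 12 nuclear receptor and lipid efflux genes 5 fell and 0 rose, whereas the other lists hold changes in both directions. Over all 11733 genes 11.5% rose and 23.9% fell.

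Of 18 other receptors and bridges for dying cells, 2 rose and 6 fell at 4 h, with a median log2 change of -0.47. With centring on the median 3 rose and 4 fell, with a median of -0.21. Fpr2, a receptor for formylated peptides and annexin, averaged 7652 ± 4078 at 4 h, against 188 ± 62 at 0 h (SD, n = 6 each), a log2 change of 5.07 ± 0.37 (limma adjusted p = 4.45e-08). Msr1, a scavenger receptor, rose by 1.82. Cd300lb, which binds phosphatidylserine, averaged 2199 ± 1249 at 4 h, against 9502 ± 1291 at 0 h, and fell by 2.37. Havcr2 (TIM family), another phosphatidylserine receptor, fell by 2.03.

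Of 19 genes of the engulfment machinery 2 rose and 4 fell, a split that turned to 8 and 1 with centring on the median. Rhog, a small GTPase upstream of Rac, rose by 0.95, and Rubcn, needed for LC3-associated phagocytosis, fell by 0.81. Uvrag and Elmo2 had log2 changes of -0.72 and -0.55, and neither passed with centring (adjusted p = 0.238 and 0.19). Of 12 find-me and don't-eat-me genes 4 rose and 4 fell. P2ry2, which senses nucleotides released by dying cells, was below the middle of the array on all 6 arrays at 0 h and was at least 2.95-fold higher at 4 h (limma adjusted p = 0.000103). Cx3cl1, the fractalkine ligand, rose by 1.55. Its receptor Cx3cr1 averaged 1047 ± 602 at 4 h, against 3961 ± 1535 at 0 h (SD, n = 6 each), and also fell, and S1pr1, the receptor of a lipid find-me signal, fell by 1.64.

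Of 12 nuclear receptor and lipid efflux genes 0 rose and 5 fell, and with centring on the median 2 rose and 2 fell. This group contains factors known to induce Mertk and C1q genes in macrophages that have taken up dying cells. Their part in the changes at 4 h was not tested. Nr1h2, a liver X receptor on the list, had no probe set of 1 symbol. Nr1h3 and Ppard had log2 changes of 0.38 and 0.77, and neither passed (limma adjusted p = 0.197 and 0.164). Rxra, the shared partner of these receptors, averaged 204 ± 98 at 4 h, against 436 ± 140 at 0 h (SD, n = 6 each), and fell by 1.14. Rxrb, its relative, had a log2 change of -0.6 (limma adjusted p = 0.0252) and so fell too. Mylip, a target of the liver X receptors, fell by 0.80. With centring, Rxra and Mylip were the 2 that fell. Abca1 and Srebf1, of the same list, had log2 changes of -0.02 and 0.42, and neither passed (limma adjusted p = 0.9 and 0.128). Pparg and Abcg1, a cholesterol exporter, had log2 changes of -0.98 and -0.89, which did not pass with centring (adjusted p = 0.154 and 0.19).

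Between codes 44 to 54 and 12 to 22, up to 3 genes past the threshold in each list were named by the size of their difference. Itgb3, an integrin chain that binds Mfge8, had 148 to 264 in codes 44 to 54, against 3.79 to 22.6 in codes 12 to 22, where it was below the middle of the array on all 6 arrays. It was at least 1.99-fold higher in codes 44 to 54 (n = 6 each, limma adjusted p = 7.14e-06). Edil3, a relative of Mfge8 that also bridges phosphatidylserine to integrins, differed by 1.95 on the log2 scale and Thbs1, a bridge to Cd36, by 2.64. Gulp1, an engulfment adaptor, was also below the middle on all 6 arrays of codes 12 to 22, and was at least 1.58-fold higher in codes 44 to 54 (limma adjusted p = 5.95e-05). Of the adaptors Crk and Crkl, which link receptors to Rac activation, Crk was higher by 0.51 and Crkl had a log2 difference of -0.27. Serping1, the inhibitor of the C1 complex, was higher by 1.42 and Cfp, properdin of the alternative pathway, by 0.52, while C1qbp, a protein that binds C1q, had a log2 difference of -0.65. In the TREM list Ptpn6, a phosphatase, was higher by 0.52 and Sirpb1a had a log2 difference of -0.54. Cx3cr1 was higher by 0.88, and Cd24a, a don't-eat-me signal, had a log2 difference of -1.78. Pecam1 had 16.5 to 118 in codes 44 to 54, against 4.03 to 59.3 in codes 12 to 22, too dim for a fold, with a limma adjusted p of 0.0488, and of 0.0635 with centring and 0.0668 with quantile normalization. In the lipid list Rxra was higher by 0.92 and Apoe, the gene most like C1qa, by 0.61, and Abcg1 had a log2 difference of -1.03. Over all 11733 genes, 11% were higher and 11.3% lower in this comparison. By list, 4 of 18 other receptors and bridges were higher and 1 lower, 3 and 1 of 13 complement genes, and 2 and 1 of 19 engulfment genes. Higher and lower were 2 and 1 of 12 find-me and don't-eat-me genes and 2 and 2 of 12 nuclear receptor and efflux genes. So were 1 and 1 of 11 genes of the TREM list, and 0 and 0 of 5 TAM genes. Between these ranges the stromal markers moved the same way as Itgb3, Thbs1, Edil3, Gulp1 and Serping1. In codes 44 to 54 against 32 to 37, Thbs1 and Edil3 differed by -0.23 and -0.04 and did not pass (limma adjusted p = 0.763 and 0.925). Serping1 differed by 0.17 in codes 32 to 37 against 12 to 22 and did not pass (adjusted p = 0.618). Itgb3 and Gulp1 were higher in both of these comparisons. The part of the stromal markers in these differences was not tested.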

How the data were processed

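The deposited table holds 1 signal intensity per probe set and array, on a linear scale, from 18 arrays. The processing notes of the submitters list MAS5 and GCOS, the array maker's software for summarising probe sets, without a version, and give no settings. In the deposited intensities the mean between the 2nd and 98th percentile is 500.0 on every array, so a broad shift between times appears in the median. No 2 arrays had identical values, and arrays of the same time had log2 correlations of 0.925 to 0.959. The number of arrays limits the precision.

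Probe sets were named from the platform annotation: of 45101, 64 are controls, 34945 carry 1 symbol (34754 matched the RefSeq gene table of GRCm38.p6), 932 several and 9224 none. Coordinates and promoters are from that table, while the build behind the probe sets does not enter. Values were log2(signal + 16). The filter kept probe sets above their array's median on at least 4 of 18 arrays. R 4.3.3 and limma 3.58.1 (lmFit and eBayes) fitted a mean per time, or a mean per code range with time as a term, over all 18 arrays, and Benjamini-Hochberg adjustment ran over all 25804 kept probe sets. "Rose" and "fell" mean an adjusted p under 0.05. The 60 exact permutation tests, all two-sided, exchanged arrays between times, or between ranges within a time, and their p-values are unadjusted. Where a gene has several kept probe sets, the brightest on average stands for it.

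Arrays were put in groups by the time in their titles, and the code ranges were read from the titles. The members and lists were chosen with earlier results of these data known. The text names all 10 members, up to 4 genes past the threshold per list with the largest change at 4 h, and the genes most correlated with each member. It also names up to 3 genes per list with the largest difference between codes 44 to 54 and 12 to 22. Some further genes of the lipid list are named as well: Rxrb, which fell, some that did not pass at 4 h, and Nr1h2, which was not tested. Some genes of the lists were not analysed here, nor were the remaining genes of the title. The fits were tested on simulated data. Alternatives were other pseudocounts (1 and 64), filters, quantile normalization, median centring, variance models, probe sets, the code range as a block or alone, and leaving out each array.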

Additional observations from a re-analysis of the deposited data

Results flagged for a closer look

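Among the values of the 10 genes at each time, 30 groups of 6 arrays, 1 had an array far from the others. Gas6 at 4 h was 8329 on the array of code 46 and 3597 to 4788 on the other 5, a gap of 0.66 of the whole range, above the critical value of 0.625. Chance alone flags about 1 in 20 groups. The same code range also held the highest Gas6 values at 1 h and 0 h, 11849 and 9953.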

How the results depend on the processing

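No paired analysis was made, because no label says which arrays belong together. The codes do run in order of time in 2 of the ranges. Codes 12, 14 and 16 are 0 h, 1 h and 4 h, as are 18, 20 and 22. So are 32, 33 and 34, and 35, 36 and 37. In the third range 44 and 47 are 0 h, 46 and 49 are 4 h, and 51 and 54 are 1 h. Whether neighbouring codes share an animal or a culture is not stated, and a pairing by code was not tested. The number of members called at 1 h stayed at 0 in 31 alternatives, and in the test of range differences in the 4 h change it stayed at 0 in 27. At 4 h against 0 h, where 4 of 10 members were called, leaving out single arrays gave 3 to 4. Centring on the median gave 2, the second probe set 1, and the ranges alone 2 (codes 44 to 54), 1 (codes 32 to 37) and 2 (codes 12 to 22). Trem2 and C1qb alone have a second probe set that passed the filter, so no other member could be called in that setting. Between ranges neither of them was called on the deposited scale, so the 0 with the second probe set says nothing of the genes called there. At 4 h against 1 h, with 3 called, the counts were 3 to 4 without single arrays, 1 with centring, 1 with the second probe set, and 1 within codes 44 to 54 and within codes 32 to 37. For codes 44 to 54 against 12 to 22, with 3 called, they were 2 to 3 without single arrays, 0 with the second probe set, and 0 at 0 h, 1 at 1 h and 1 at 4 h alone. For codes 32 to 37 against 12 to 22, with 1 called, they were 0 to 2 without single arrays, 3 with a pseudocount of 64, 3 with the stricter filter, 3 with the mean over probe sets, 4 with trend and robust variances, and 0 with no filter, with quantile normalization, with no term for time, with the second probe set and within each time. For codes 44 to 54 against 32 to 37, with 4 called, they were 3 to 5 without single arrays, 2 with no filter, 2 with centring, 2 with no term for time, and 0 with the second probe set and within each time. Mertk at 4 h against 0 h passed in all 30 alternatives, at -3.83 to -2.11. Values that turned sign were C1qb at 4 h against 0 h, 0.02 with centring, and Trem2 for codes 32 to 37 against 12 to 22, 0.00 with the second probe set and -0.20 at 1 h alone. Of 60 member results 36 passed under no setting, and 24 of those changed sign somewhere, at -0.17 to 1.00. The cause of these differences was not tested, except that fits within a range or a time use fewer arrays.

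Counts over all probe sets also moved. At 1 h against 0 h 194 were called, 339 with the range as a block, 110 to 415 without single arrays, 141, 55 and 0 within codes 44 to 54, 32 to 37 and 12 to 22, and 84 of 11733 with gene means. At 4 h against 0 h 8532 were called, and 3783, 1184 and 4001 within the ranges. At 4 h against 1 h 6286 were called, and 1833, 490 and 3399 within the ranges. Without a term for time the range comparisons called 2553, 1969 and 2070, against 4941, 4586 and 4417 with it. Within single times they called 0 to 683. The test of range differences called 216, and 46 to 220 without single arrays, 57 with no filter, 326 with a pseudocount of 64, 501 with trend and robust variances, and 130 of 11733 with gene means. Gene means gave 4468 and 3464 calls for 4 h against 0 h and 1 h, and 2536, 2477 and 2555 for the ranges. Signal near background limits the second probe sets of Axl, Gas6 and Trem2.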
